A study of Mus musculus with 18 samples.

Results

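The last step of natural killer (NK) cell maturation, from double-positive to CD11b cells, was examined in wild-type mice whose NK cells had been activated by interleukin-15. It was measured as the difference between the 3 wild-type CD11b arrays and the 3 wild-type DP arrays, chosen by their titles, 6 of the 18 arrays of the study. The CD11b group held CD27-CD11b+ cells and the DP group CD27+CD11b+ cells, both sorted as NKp46+ from NK cells that had been enriched out of spleen by negative selection. Both groups came from Runx3 +/+ mice of the outbred ICR strain, 6 weeks old and labelled male or female, injected 2 times, 2 days apart, with interleukin-15 complexed to its receptor (IL15/Ra in the labels), which stimulates NK cells. The other arrays were CD11b, DP and CD27 cells (CD27+CD11b-) of Runx3 knockout (KO) mice and CD27 cells of wild-type (WT) mice, 3 arrays each, treated alike. No uninjected mice were among the samples. The labels do not say whether an array stands for 1 mouse or a pool, or whether equal replicate numbers mark the same mice, so p-values here reflect only how these samples varied, which may be technical in part.

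NK cells are innate lymphocytes that kill infected and transformed cells without prior priming and secrete interferon gamma. In the mouse spleen they mature by gaining CD11b, an integrin chain that pairs with CD18, and then losing CD27, a receptor of the tumour necrosis factor family; T-bet, Zeb2 and Blimp-1 (Tbx21, Zeb2 and Prdm1) are the transcription factors best known for driving the late stages. CD27-CD11b+ cells proliferate little at rest, circulate in blood, and carry Klrg1, Cx3cr1 and S1pr5, while CD27+ cells make more cytokine and carry Cxcr3 and, at the earliest stage, the interleukin-7 receptor.

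Cd27 mRNA was 9.85, 9.94 and 9.83 on the CD11b arrays, against 11.56, 11.67 and 11.55 on the DP arrays (log2 units of the deposited values, as are all levels below). This 3.3-fold difference (95% interval 2.18 to 5.01, adjusted p = 0.0109) was set by the sort and is no finding of its own. It did not pass without DP replicate 2, CD11b replicate 1 or CD11b replicate 3 (adjusted p of up to 0.0626). Itgam, which encodes CD11b, averaged 12.60 ± 0.03 in CD11b cells and 12.37 ± 0.07 in DP cells (SD, n = 3 each; adjusted p = 0.925), and both gates were positive for it. Ncr1, which encodes NKp46, averaged 13.75 ± 0.05 in CD11b cells and 13.70 ± 0.10 in DP cells. Pearson's r between WT arrays ran from 0.980 to 0.994 over all probe sets, and replicate arrays of a group had a median SD of 0.14 log2. With 3 arrays a group, their number sets the precision. Xist was 5.19 and 5.32 on the CD11b and DP arrays of WT replicate 1, and between 12.48 and 12.92 on those of replicates 2 and 3, so this sex-linked gene differed between replicate numbers. Eif2s3y, a gene of the Y chromosome, read 11.04 and 11.02 on the CD11b and DP arrays of WT replicate 1, 7.23 and 8.12 on those of replicate 2 and 5.36 and 5.53 on those of replicate 3.

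Of 35399 probe sets, 186 passed at an adjusted p under 0.05 (0.525%). Of these, 109 were higher in CD11b cells (0.308%; 86 named genes) and 77 lower (0.218%; 67 named genes), and 22 had no single gene symbol. Their changes lay between 0.30 and 3.38 log2 in size, with a median of 0.84, and 38 higher and 38 lower ones were at least 2-fold. The median over all probe sets was 0.0005. An unadjusted p under 0.05 by limma was reached by 2959 of the 35399. With the replicate number as a block 851 passed (2.4%), 491 higher (1.39%) and 360 lower (1.02%), and these included 184 of the 186. The count was 72 without DP replicate 2 and 75 without CD11b replicate 3. It was 73 when only the 6 arrays compared were in the fit. The 3 CD11b arrays lay wholly above or below the 3 DP arrays for all 186, as they did for 5723 of all probe sets (16.2%).

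**Figure D1:**
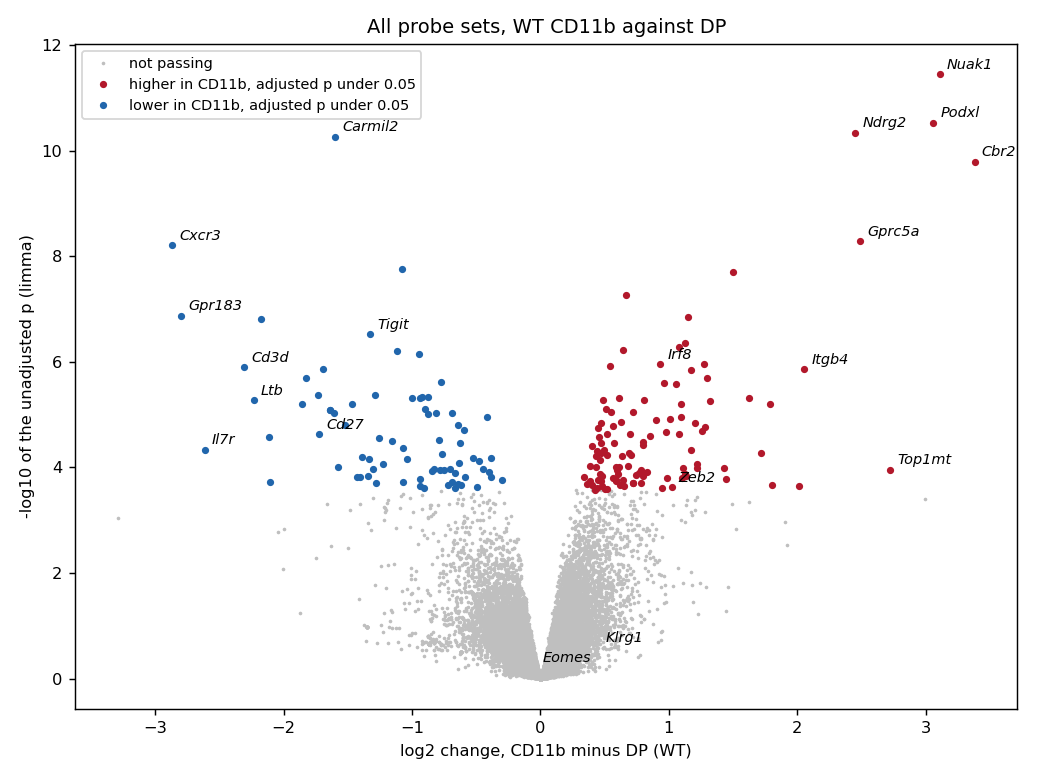
Change between WT CD11b and WT DP cells (x axis, log2, CD11b minus DP) against the negative log10 of the unadjusted p (y axis) for all 35399 probe sets. The 109 red points are higher and the 77 blue points lower in CD11b cells; Cbr2, Nuak1 and Podxl lie farthest to the right and Cxcr3, Gpr183 and Il7r farthest to the left among those that passed.

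Promoters of the genes that lead the rises and falls are shown as the regulatory sequence of each. They are those of Cbr2 and Nuak1, the largest rises, and of Cxcr3 and Gpr183, the largest falls, each the 250 bases before the start of the gene in RefSeq (build GRCm38.p6), written 5′ to 3′ on the gene's strand. Capitals mark matches to TGTGGT (the core bound by Runt proteins such as Runx3), AGGTGT (a T-box core) or CAGGTG (an E-box bound by Zeb proteins), searched on both strands; AGGTGT and CAGGTG can overlap.
Cbr2, chr11:120732022-120732271, minus strand: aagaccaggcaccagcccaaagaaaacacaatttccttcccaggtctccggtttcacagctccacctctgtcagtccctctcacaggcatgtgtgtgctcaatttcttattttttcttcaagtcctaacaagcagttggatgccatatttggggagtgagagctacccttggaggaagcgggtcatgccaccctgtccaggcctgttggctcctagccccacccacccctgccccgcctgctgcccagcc
Nuak1, chr10:84440669-84440918, minus strand: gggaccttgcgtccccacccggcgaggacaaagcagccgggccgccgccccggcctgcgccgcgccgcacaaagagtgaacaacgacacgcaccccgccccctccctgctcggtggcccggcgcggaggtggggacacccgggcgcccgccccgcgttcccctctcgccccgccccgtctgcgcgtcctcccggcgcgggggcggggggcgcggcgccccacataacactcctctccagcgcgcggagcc
Cxcr3, chrX:101734148-101734397, minus strand: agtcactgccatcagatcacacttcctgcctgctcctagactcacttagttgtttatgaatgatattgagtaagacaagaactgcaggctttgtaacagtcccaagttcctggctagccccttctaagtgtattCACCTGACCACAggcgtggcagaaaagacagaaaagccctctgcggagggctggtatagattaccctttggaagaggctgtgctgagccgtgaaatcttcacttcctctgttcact
Gpr183, chr14:121965194-121965443, minus strand: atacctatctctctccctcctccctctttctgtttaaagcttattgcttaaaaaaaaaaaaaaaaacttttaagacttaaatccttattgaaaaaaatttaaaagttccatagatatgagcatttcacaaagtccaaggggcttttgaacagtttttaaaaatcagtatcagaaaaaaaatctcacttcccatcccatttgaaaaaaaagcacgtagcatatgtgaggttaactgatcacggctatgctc
Among the 4, the Cxcr3 promoter alone held any of the 3 motifs. It held an E-box that starts 116 bases before the gene and, directly after it, a Runt core that starts 110 bases before it, both on the other strand. Over 27025 promoters of that length in the table, 14.2% held the Runt core, 12% the T-box core and 17.1% the E-box, and over the 15614 of measured genes these shares were 11.9%, 11% and 16.6%. Of 67 promoters of genes higher in CD11b cells these shares were 8.96%, 10.4% and 13.4%, and of 53 promoters of genes lower in CD11b cells 11.3%, 18.9% and 18.9%. These are letter matches and no measure of binding.

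The largest rise was that of Cbr2, a carbonyl reductase. Its probe set read 8.33, 8.87 and 8.90 in CD11b cells, against 5.43, 5.35 and 5.17 in DP cells. The 10.4-fold difference (95% interval 7.63 to 14.2, adjusted p = 1.14e-06) was far above the spread within either group. Nuak1, a kinase of the AMPK-related family, read 8.69, 8.23 and 8.88 in CD11b cells, against 5.70, 5.20 and 5.58 in DP cells, and was 8.63-fold higher (6.95 to 10.7, adjusted p = 1.26e-07). Podxl encodes podocalyxin, a sialomucin of the CD34 family on the cell surface. It read 8.98, 9.28 and 9.07 in CD11b cells, against 6.08, 5.85 and 6.22 in DP cells, an 8.35-fold rise (6.51 to 10.7, adjusted p = 4.83e-07). The deposited values carry no detection calls, so whether DP readings near 5 were above background is not known here.

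Other surface and signalling genes rose from low levels. Gprc5a, an orphan G protein-coupled receptor induced by retinoic acid, read 7.48, 7.83 and 7.48 in CD11b cells, against 5.25, 5.05 and 5.02 in DP cells, and was 5.62-fold higher (4.17 to 7.57, adjusted p = 3.06e-05). Ndrg2, of the N-myc downstream regulated family, read 8.91, 9.05 and 8.93 in CD11b cells, against 6.68, 6.47 and 6.39 in DP cells, and was 5.47-fold higher (4.46 to 6.72, adjusted p = 4.83e-07). Itgb4, the integrin beta chain of the laminin receptor, varied more among CD11b arrays. It read 8.04, 8.72 and 7.15 there, against 5.89, 6.06 and 5.80 in DP cells, a 4.15-fold rise (2.83 to 6.1, adjusted p = 0.00192).

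Several rises were of enzymes and transporters. Top1mt, the mitochondrial DNA topoisomerase, read 9.77, 10.07 and 11.04 in CD11b cells, against 6.98, 6.82 and 8.90 in DP cells. Replicate 3 was highest in both groups, and the 6.6-fold rise (3.07 to 14.2, adjusted p = 0.0313) no longer passed when any array but DP replicate 3 was left out (adjusted p of up to 0.18, without DP replicate 2). As3mt, a methyltransferase of arsenite, was 2.5-fold higher (adjusted p = 0.00455), and its arrays read 11.06, 11.10 and 11.01 in CD11b cells, against 9.82, 9.40 and 9.98 in DP cells. Timp2, an inhibitor of matrix metalloproteases, was 3.08-fold higher (adjusted p = 0.00438). Pald1, which encodes paladin, a protein with phosphatase domains, was 2.46-fold higher (adjusted p = 0.00257).

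The remaining rises among the 15 largest lost their call when some arrays were left out singly, in the fit without the replicate block. With the block they passed, at an adjusted p of 0.000561 for Parm1, 0.000102 for Adssl1 and 0.00295 for Tmem108. It was 0.00561 for Slc2a10 and 0.00508 for Tubb2b. Parm1, a mucin-like protein, was 4.03-fold higher (adjusted p = 0.0456, or up to 0.197 without CD11b replicate 1). The call of Parm1 also ended without DP replicate 2, DP replicate 3 or CD11b replicate 2. Adssl1, the muscle form of adenylosuccinate synthase, was 3.49-fold higher (adjusted p = 0.0445), but not without DP replicate 2 (0.235), DP replicate 1, CD11b replicate 1 or CD11b replicate 3. Tmem108, a transmembrane protein, was 3.29-fold higher (adjusted p = 0.02), but not without DP replicate 2 (0.118), DP replicate 1, CD11b replicate 2 or CD11b replicate 3. Slc2a10, the glucose transporter GLUT10, was 2.7-fold higher (adjusted p = 0.0303), and DP replicate 1 was the one array that could be left out with the call kept (up to 0.171, without DP replicate 2). Tubb2b, a beta tubulin, was 2.43-fold higher (adjusted p = 0.00899), but not without CD11b replicate 3 (0.0522) or DP replicate 2. In all 15 genes the lowest CD11b array was above the highest DP array, which was a condition of their choice.

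**Figure D2:**
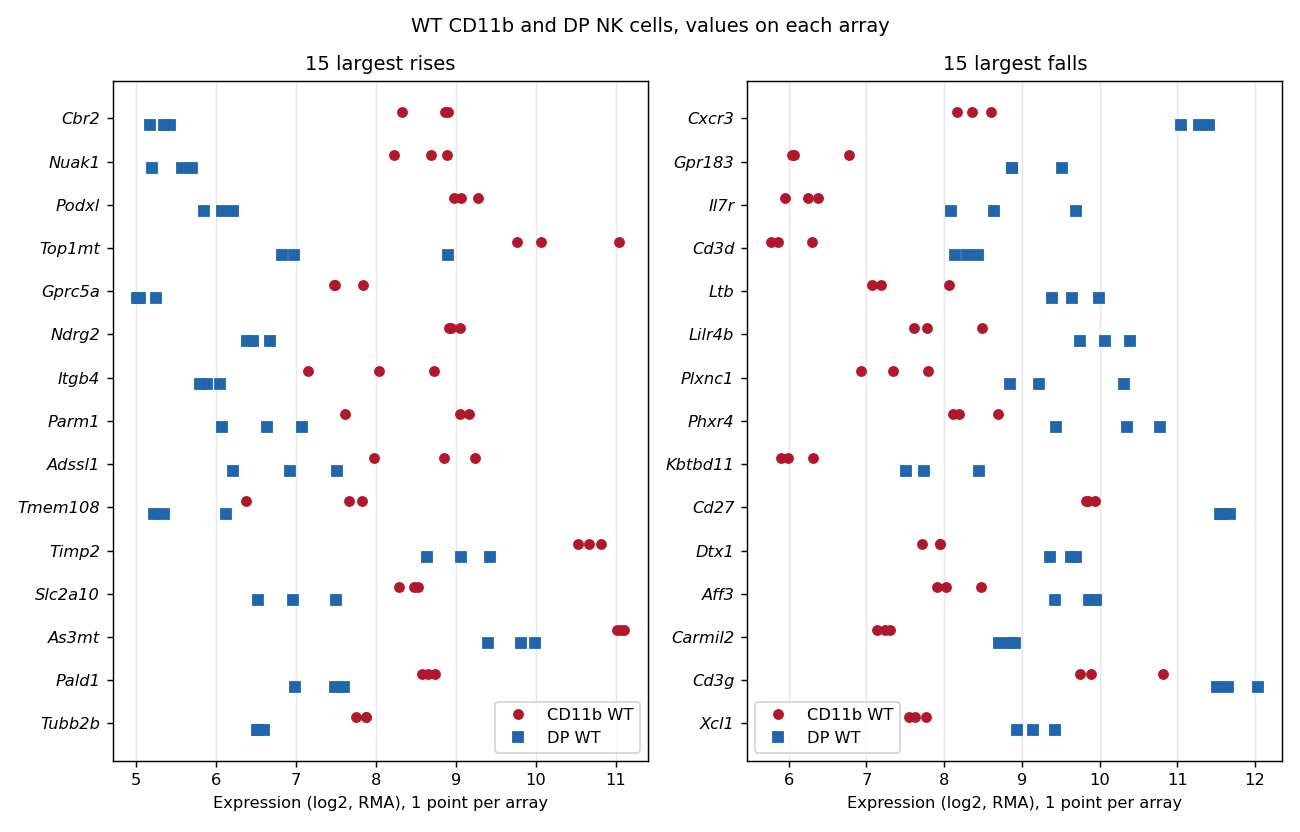
Log2 values of each WT array (x axis) for the 15 genes with the largest rises (left) and the 15 with the largest falls (right) among those that passed, CD11b arrays as red circles and DP arrays as blue squares. The groups do not overlap in any of the 30 genes, since genes with overlap were not chosen. Cbr2 lies above 8.3 in CD11b cells and below 5.5 in DP cells. Cxcr3 lies below 8.7 in CD11b cells and above 11 in DP cells.

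Receptors that guide migration led the falls. Cxcr3, the receptor of interferon-induced chemokines, read 8.36, 8.60 and 8.17 in CD11b cells, against 11.29, 11.41 and 11.05 in DP cells. It was 7.32-fold lower (5.17 to 10.4, adjusted p = 3.08e-05). Gpr183, known as EBI2, a receptor of oxysterols that positions lymphocytes in spleen and lymph nodes, was 6.95-fold lower (4.51 to 10.7, adjusted p = 0.000422). It read 6.77, 6.04 and 6.06 in CD11b cells, against 9.51, 8.88 and 8.87 in DP cells, with replicate 1 highest in both groups. Plxnc1, a semaphorin receptor, was 4.31-fold lower (adjusted p = 0.0419), with DP replicate 3 as the one array that could be left out with the call kept (up to 0.211, without DP replicate 2).

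Of 20 measured chemokine and egress receptors, Cxcr3 and Gpr183 were the 2 that fell, none rose and 18 did not pass; the median was -0.04 log2 beside 0.01 over 19938 genes (0.421% of those genes passed as higher and 0.331% as lower, and 1.98% and 1.46% with the replicate block). Cx3cr1, the fractalkine receptor of mature NK cells, read 11.80, 11.43 and 11.78 in CD11b cells, against 10.41, 8.97 and 9.87 in DP cells. Its 3.78-fold difference (95% interval 1.71 to 8.34) did not pass (adjusted p = 0.18), though it did with the replicate number as a block (adjusted p = 0.0309). S1pr5, a sphingosine phosphate receptor used to leave tissue, differed by 0.60 log2 (adjusted p = 0.332). With the block 1 of the 20 rose and 3 fell, Cxcr6, a marker of ILC1, being the third.

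Cytokines and their receptors of the CD27+ stage fell as well. Il7r, the interleukin-7 receptor alpha chain, read 5.96, 6.38 and 6.25 in CD11b cells, against 8.08, 9.70 and 8.64 in DP cells. It was 6.12-fold lower (3.12 to 12, adjusted p = 0.0181), but of the arrays DP replicate 1 was the one that could be left out with the call kept (up to 0.0951, without DP replicate 2). Ltb, which encodes lymphotoxin beta, read 7.08, 7.18 and 8.06 in CD11b cells, against 9.39, 9.64 and 9.99 in DP cells, and was 4.71-fold lower (2.94 to 7.54, adjusted p = 0.00451). Xcl1, a chemokine that attracts cross-presenting dendritic cells, read 7.77, 7.62 and 7.55 in CD11b cells, against 9.14, 9.43 and 8.94 in DP cells. It was 2.87-fold lower (adjusted p = 0.00835), but not without DP replicate 2 (0.0621) or CD11b replicate 3.

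Of 26 cytokines and chemokines made by NK cells, Ltb and Xcl1 fell and Ccl9 rose (median of the list -0.05), and 23 did not pass. Ccl9, a macrophage-attracting chemokine, was 2.33-fold higher (adjusted p = 0.0273, or 0.127 without CD11b replicate 2), and its call also ended without CD11b replicate 1, DP replicate 2 or DP replicate 3. Ifng, which encodes interferon gamma, had a change of -0.61 log2 (adjusted p = 0.655; 0.0113 with the block). Of 29 cytokine receptor chains Il7r alone fell, none rose and 28 did not pass; the median was -0.10. Il2rb, the beta chain shared by the receptors of interleukin-2 and interleukin-15, had a change of -0.30 (adjusted p = 0.196; 0.021 with the block). With the block 4 chains fell and none rose.

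Genes of the T cell receptor complex and of costimulation also fell. Cd3d and Cd3g encode CD3 chains, whose transcripts occur in immature NK cells as well as in T cells. Cd3d read 6.29, 5.86 and 5.78 in CD11b cells, against 8.30, 8.43 and 8.14 in DP cells, and was 4.96-fold lower (3.23 to 7.62, adjusted p = 0.00192). Cd3g read 10.82, 9.89 and 9.75 in CD11b cells, against 12.04, 11.51 and 11.65 in DP cells. It was 2.99-fold lower (adjusted p = 0.0303, or 0.148 without CD11b replicate 3), and its call held only without CD11b replicate 1 among the 6 arrays. Cd28, the costimulatory receptor, was 1.92-fold lower (adjusted p = 0.00438). Carmil2, an actin regulator needed for CD28 costimulation, was 3.04-fold lower (2.65 to 3.48, adjusted p = 4.83e-07), with arrays at 7.24, 7.30 and 7.13 in CD11b cells, against 8.71, 8.85 and 8.91 in DP cells.

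Of 15 measured T cell markers, 4 fell (Il7r, Cd3d, Cd3g and Cd28), none rose and 11 did not pass. The mean over the list was 6.48 to 6.52 on CD11b arrays and 7.01 to 7.22 on DP arrays. Cd3e, the CD3 chain whose gene lies beside those of Cd3d and Cd3g, read 5.55, 5.53 and 5.37 in CD11b cells and 5.97, 6.27 and 5.61 in DP cells (adjusted p = 0.931). Cd4 averaged 4.92 ± 0.08 in CD11b cells and 5.01 ± 0.08 in DP cells, and Cd8a 5.55 ± 0.04 in CD11b cells and 5.62 ± 0.11 in DP cells, near the low end of the array's range (3.91 to 14.96). Trgv1, a T cell receptor gamma segment that was chosen after its values were seen, read 9.34, 9.76 and 9.42 in CD11b cells, against 10.32, 11.35 and 10.89 in DP cells (adjusted p = 0.0369, or 0.199 without DP replicate 2). Its call held without DP replicate 1 alone. Of 14 ILC markers, those of other innate lymphoid cells, Il7r and Tnfsf10 fell (4 with the block, with Cxcr6 and Gata3), and the list mean was at most 6.95 on CD11b arrays and at least 7.35 on DP arrays. The part that another cell type may have in these falls was not tested, and in sorted bulk cells fewer cells with a transcript and less of it per cell cannot be told apart.

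Lists of markers of B cells, plasma cells, macrophages, neutrophils, erythroid cells and mast cells had no call in either direction by limma, with or without the replicate block. At an unadjusted p under 0.05 there were 2 of 15 macrophage markers, 1 of 16 neutrophil, 1 of 12 erythroid and 1 of 12 mast cell markers. These were Cd68 (-0.79 log2) and Ccr2 (-0.59), Ly6g (-1.20), Car2 (-0.93) and Cma1 (0.82). There were 0 of 14 B cell and 0 of 8 plasma cell markers, beside 2959 of all 35399 probe sets. The spread in this fit was shared with the KO arrays. For Lyz2 the SD was 0.16 in WT CD11b and 0.20 in WT DP cells, but 3.65 in KO CD11b cells. For such genes the lack of a call does not show that the WT groups were alike. The mean levels of the lists differed little. The macrophage list lay at 5.72 to 5.77 on CD11b arrays and 5.82 to 5.84 on DP arrays. The neutrophil list lay at 5.07 to 5.12 on CD11b arrays and 5.13 to 5.21 on DP arrays. For the B cell list it was 5.19 to 5.24 on CD11b arrays and 5.24 to 5.28 on DP arrays. Erythroid markers lay at 5.93 to 5.95 on CD11b arrays and 6.04 to 6.06 on DP arrays, and mast cell markers at 5.66 to 5.70 on CD11b arrays and 5.59 to 5.63 on DP arrays. Of the 15 genes of dendritic cells and MHC class II, Irf8 rose, a gene also listed for late NK maturation; Cd74 and H2-Aa read 5.43 or less on all 6 arrays.

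Markers of immature CD27+ NK cells fell most as a list, a direction that the sort on CD27 bears on. Of 25 measured, 7 fell (Cxcr3, Il7r, Ltb, Cd27, Xcl1, Tnfsf10 and Cd28), none rose and 18 did not pass, and the median change was -0.76 log2. With the replicate block 14 fell. Tnfsf10, the death ligand TRAIL, read 7.30, 6.65 and 7.37 in CD11b cells, against 8.65, 8.09 and 8.74 in DP cells. It was 2.62-fold lower (adjusted p = 0.022, or 0.104 without CD11b replicate 2), and the call also ended without CD11b replicate 1, DP replicate 1 or DP replicate 3. Emb, which encodes the adhesion protein embigin, had the lowest value of the list, -3.29, with an adjusted p of 0.0989 (0.00909 with the block).

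Markers of mature NK cells did not move in the same measure. Of 25 measured, Zeb2 alone rose, none fell and 24 did not pass; their median was 0.22 log2. With the block 2 rose and 1 fell. At an unadjusted p under 0.05 by limma there were 12 of the 25, in either direction, and 18 of the 25 changes were above 0. Of the 25 immature markers 17 had such a p and 2 were above 0. Over all probe sets 2959 of 35399 reached such a p. Klrg1, an inhibitory receptor of late NK cells, averaged 13.44 ± 0.06 in CD11b cells and 12.99 ± 0.23 in DP cells, 1.37-fold (95% interval 0.771 to 2.42, adjusted p = 0.871). The spread behind that p took in the CD27 arrays, where the SD of Klrg1 was 0.46 in WT and 0.94 in KO cells. Of 28 cytotoxic genes, the death ligand Tnfsf10 fell, none rose and 27 did not pass (median 0.11). With the block 3 rose (Fasl, Ctsc and Rab27a) and 1 fell. Granzyme and perforin genes were among those 27, with values of either sign: Gzmb had a change of 0.56 (adjusted p = 0.444), Gzma 0.18 (0.39), Prf1 0.18 (0.857) and Gzmm -0.64 (0.443).

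**Figure D3:**
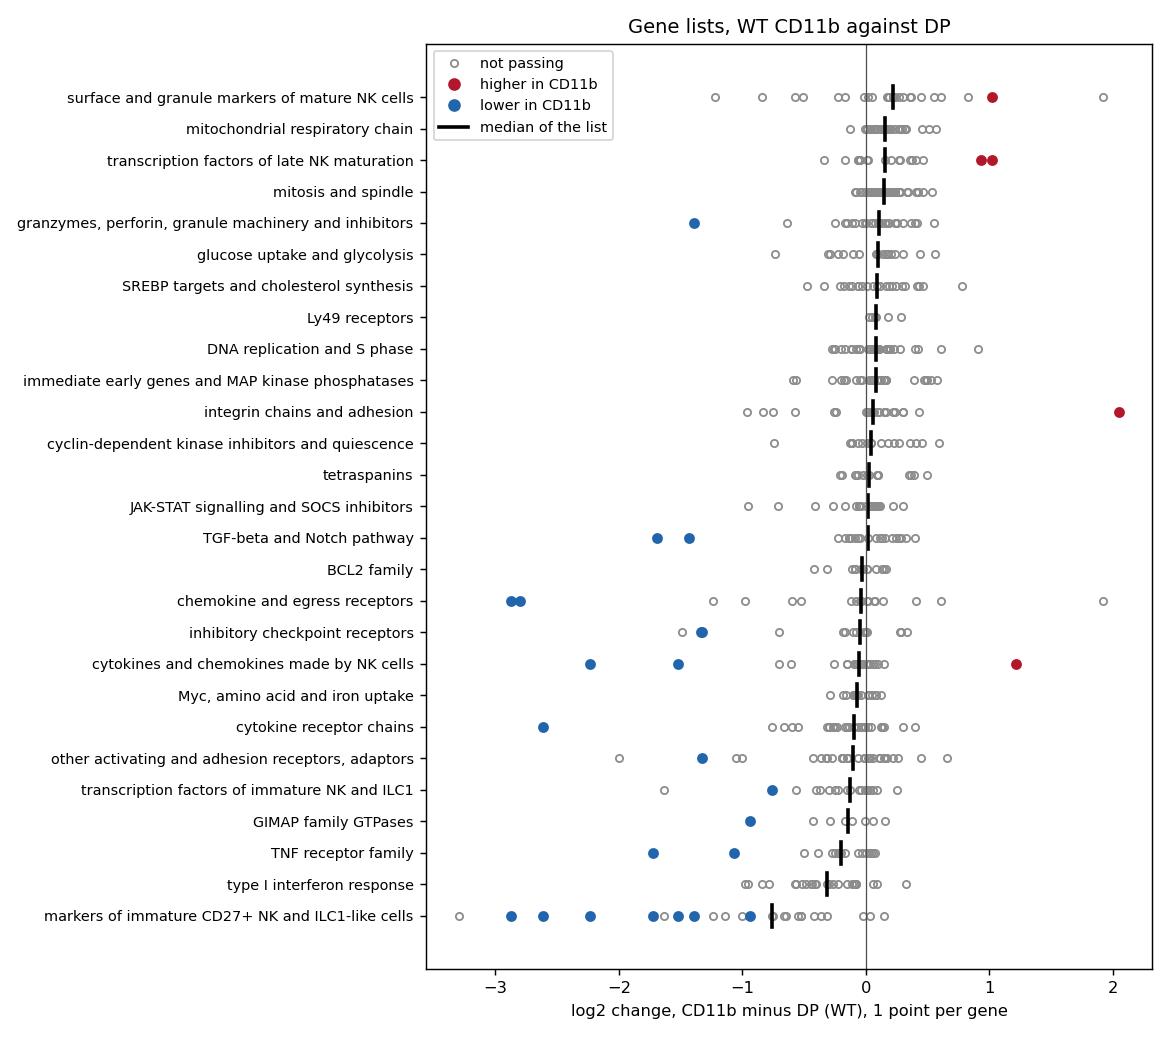
Change of each measured member of the gene lists (x axis, log2, WT CD11b minus WT DP), 1 point a gene, with the list median as a black bar; filled points passed. Blue points gather on the left in the markers of immature CD27+ NK cells (7 of 25, median -0.76), while the markers of mature NK cells hold 1 red point, Zeb2, among 25 (median 0.22).

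Transcription factors of late maturation rose in 2 of 19 cases, none fell and 17 did not pass (median 0.15). Irf8, a factor of the interferon regulatory family, read 12.36, 12.44 and 12.22 in CD11b cells, against 11.36, 11.36 and 11.50 in DP cells. It was 1.91-fold higher (1.61 to 2.27, adjusted p = 0.00188). Zeb2, a repressor of the zinc finger E-box family, read 12.09, 12.09 and 12.35 in CD11b cells, against 11.19, 10.72 and 11.56 in DP cells. It was 2.03-fold higher (1.49 to 2.77, adjusted p = 0.0466), and DP replicate 3 was the one array that could be left out with the call kept (up to 0.231, without DP replicate 2). Zeb2os, an RNA gene inside the interval of Zeb2 in RefSeq, rose by 1.09 log2 (adjusted p = 0.00482); it was chosen after its values were seen, and the signals of overlapping genes cannot be fully told apart.

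Tbx21, which encodes T-bet, averaged 12.75 ± 0.03 in CD11b cells and 12.38 ± 0.07 in DP cells. The 1.29-fold difference (1.12 to 1.49) did not pass (adjusted p = 0.133), though it did with the replicate block (adjusted p = 0.0293), as 4 of the 19 then did. Prdm1 had a change of 0.36 log2 (adjusted p = 0.588), Runx3 0.28 (0.453) and its partner Cbfb 0.09 (0.9). Eomes, the T-box factor of NK identity, averaged 12.49 ± 0.08 in CD11b cells and 12.53 ± 0.10 in DP cells (1.03-fold lower, 0.911 to 1.16, adjusted p = 0.982). Runx1 averaged 11.01 ± 0.11 in CD11b cells and 10.97 ± 0.16 in DP cells.

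Of 19 factors of immature NK cells and ILC1, Zeb1 alone fell, none rose and 18 did not pass (median -0.13). Zeb1, the paralogue of Zeb2, read 9.01, 9.10 and 8.98 in CD11b cells, against 9.70, 9.85 and 9.83 in DP cells. It was 1.7-fold lower (adjusted p = 0.0201, or 0.108 without DP replicate 2), and DP replicate 1 was the one array that could be left out with the call kept. With the block 4 of the 19 fell. One of them was Myb, a factor of progenitors, with a change of -1.63 (adjusted p = 0.187; 0.000862 with the block).

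Inhibitory and activating receptors changed in few cases. Tigit, a checkpoint receptor for nectin-family ligands, read 9.11, 9.20 and 8.57 in CD11b cells, against 10.32, 10.37 and 10.18 in DP cells, and was 2.51-fold lower (2.02 to 3.12, adjusted p = 0.000759). Cd160, a receptor of the herpesvirus entry mediator, was 2.53-fold lower (adjusted p = 0.023, or 0.116 without CD11b replicate 3), and its call also ended without CD11b replicate 2, DP replicate 1 or DP replicate 3. These were the 2 of 16 checkpoint receptors that fell, and none rose; with the block 2 fell and 1 rose (Lair1). Lilr4b, a leukocyte immunoglobulin-like receptor whose near copy Lilrb4a lies beside it, was 4.33-fold lower (adjusted p = 0.0121). The call of Lilr4b ended without CD11b replicate 3 (0.079), CD11b replicate 2 or DP replicate 2, and its signal cannot be fully told apart from that of Lilrb4a. A list of 32 NK receptors and adaptors shares Tigit and Cd96 with the checkpoint list. In it Tigit fell, none rose and 31 did not pass. With the block 3 of the 32 fell, Slamf6 (-2.00 log2, adjusted p = 0.000294 with the block and 0.124 without it), Crtam and Tigit, and 1 rose (Klrb1b). Of 6 measured Ly49 receptors none passed by limma (0 at an unadjusted p under 0.05, median 0.08).

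Of 17 receptors of the tumour necrosis factor family, Cd27 and Tnfrsf26 fell and none rose (median -0.20); with the block 3 fell, Tnfrsf18 being the third. Tnfrsf26, a decoy receptor, was 2.1-fold lower (adjusted p = 0.0419, or 0.23 without DP replicate 2), and CD11b replicate 2 was the one array that could be left out with the call kept. Of 23 integrin chains and adhesion genes, Itgb4 alone rose, none fell and 22 did not pass. With the block 2 of these fell, Itgad (-0.96) and Itgax (-0.83), the alpha chains of CD11d and CD11c.

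Notch pathway genes were among the falls. Dtx1, which encodes Deltex, a regulator of Notch, read 7.94, 7.95 and 7.71 in CD11b cells, against 9.36, 9.63 and 9.70 in DP cells, and was 3.23-fold lower (2.36 to 4.44, adjusted p = 0.00192). Maml2, a coactivator of Notch, was 2.69-fold lower (adjusted p = 0.0372, or 0.163 without CD11b replicate 2), but its call ended without any 1 of the 6 arrays. Both of its probe sets were lower. Phxr4, a gene that lies inside Maml2 in RefSeq, read 8.19, 8.11 and 8.70 in CD11b cells, against 9.44, 10.35 and 10.78 in DP cells. It was 3.62-fold lower (adjusted p = 0.00482), and its signal cannot be fully told apart from that of Maml2. Dtx1 and Maml2 were the 2 of 21 measured genes of the TGF-beta and Notch list that fell, and none rose.

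Kbtbd11, a protein with BTB and kelch domains, was 3.55-fold lower (adjusted p = 0.00257). The other probe set of Kbtbd11 had a change of -0.34 log2 and did not pass. Aff3, a nuclear protein of the AF4 family, was 3.05-fold lower (adjusted p = 0.00591). Gimap7, a GTPase of lymphocytes, was 1.92-fold lower (adjusted p = 0.0391) and the 1 of 8 measured GIMAP genes that fell (2 with the block, Gimap6 being the other), but its call ended without any 1 of the 6 arrays (up to 0.202, without DP replicate 2). Lyst, the lysosomal trafficking regulator mutated in beige mice, fell by 1.08 log2 (adjusted p = 7.63e-05) and was chosen after its values were seen.

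The lists of cell division and metabolism held no call by limma. Of 39 genes of DNA replication none passed (median 0.08), of 48 of mitosis none (median 0.15), of 34 of the respiratory chain none (median 0.16) and of 19 of glycolysis none (median 0.10). At an unadjusted p under 0.05 there were 1 gene of replication, 0 of mitosis, 11 of the respiratory chain and 5 of glycolysis. Over all probe sets 2959 of 35399 had such a p. Changes were above 0 for 28 genes of replication, 43 of mitosis, 32 of the respiratory chain and 12 of glycolysis. The spread was shared with the KO arrays. For Cenpa, of the mitosis list, the SD was 0.21 in WT CD11b and 0.14 in WT DP cells, but 0.81 in KO DP cells. The lack of a call is thus no proof that these genes did not change. With the block 2 genes of replication and 1 of the respiratory chain rose and 1 of glycolysis fell. Of 25 genes of the type I interferon response none passed by limma (7 at an unadjusted p under 0.05) and the median was -0.31. With the block 5 of these fell (Usp18, Rtp4, Ifit3, Irf7 and Ddx58), Irf7, the master factor of this response, with a change of -0.56 (adjusted p = 0.00325 with the block and 0.34 without it).

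Hmcn1, which encodes the extracellular matrix protein hemicentin, stood apart in its number of probe sets. Of its 77 probe sets 11 were higher in CD11b cells, none lower and 66 did not pass, with changes from -0.06 to 1.79 log2. The probe set of highest mean, the one used to name a gene, did not pass, so Hmcn1 is not among the 15 largest rises.

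The step before, from CD27 to DP cells, was set against this one by a contrast, since both use the DP arrays. Of all probe sets 9 differed between the steps (0.0254%), 8 with a higher change in the last step (0.0226%) and 1 with a lower one (0.00282%), and 1633 had an unadjusted p under 0.05. Cbr2 read 5.05, 5.11 and 5.02 in WT CD27 cells, and the change in the last step exceeded that in the step before by 3.12 log2 (2.34 to 3.90, adjusted p = 0.00471, or 0.0696 without DP replicate 3). The excess was 2.78 for Nuak1 (2.24 to 3.33, adjusted p = 0.000857), 2.69 for Podxl (2.07 to 3.31, adjusted p = 0.00256) and 2.22 for Ndrg2 (1.71 to 2.73, adjusted p = 0.00256). These 3 passed without each of the 9 arrays in turn. For Gprc5a it was 2.38 (adjusted p = 0.0352), but 8 of the 9 arrays could each end that call (up to 0.287, without DP replicate 2).

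Among the others of the 9, St6galnac3 and Tmsb15a changed mainly in the earlier step. St6galnac3, a sialyltransferase, averaged 7.92 ± 0.09 in CD27, 5.77 ± 0.11 in DP and 5.81 ± 0.19 in CD11b cells. The difference between its steps (2.19, adjusted p = 0.0352) lost its call without 8 of the 9 arrays (up to 0.268, without DP replicate 3). Tmsb15a, a thymosin beta gene, averaged 7.36 ± 0.02 in CD27, 8.39 ± 0.04 in DP and 8.20 ± 0.10 in CD11b cells, with a difference of -1.21 (adjusted p = 0.0298; up to 0.209 without DP replicate 2, and lost without 7 of the 9 arrays). Tnfaip8, a regulator of cell death, had a difference of 1.32 (adjusted p = 0.0352) that was lost without 8 of the 9 arrays (up to 0.299, without DP replicate 2). The remaining 1 has no single symbol.

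Some genes that fell in the last step were also lower in DP than in CD27 cells. Il7r averaged 11.77 ± 0.57 in CD27, 8.81 ± 0.82 in DP and 6.19 ± 0.22 in CD11b cells, and Gpr183 10.53 ± 0.30 in CD27, 9.09 ± 0.37 in DP and 6.29 ± 0.42 in CD11b cells. Cxcr3 averaged 11.95 ± 0.17 in CD27, 11.25 ± 0.18 in DP and 8.38 ± 0.22 in CD11b cells, and its change in the step before was -0.70 (adjusted p = 0.328); the difference between its steps, -2.17, did not pass (adjusted p = 0.155). Tigit averaged 10.01 ± 0.03 in CD27, 10.29 ± 0.10 in DP and 8.96 ± 0.34 in CD11b cells, with a difference between the steps of -1.61 (adjusted p = 0.0586). Irf8 averaged 10.61 ± 0.11 in CD27, 11.41 ± 0.08 in DP and 12.34 ± 0.11 in CD11b cells, so that the arrays of the 3 stages did not overlap.

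**Figure D4:**
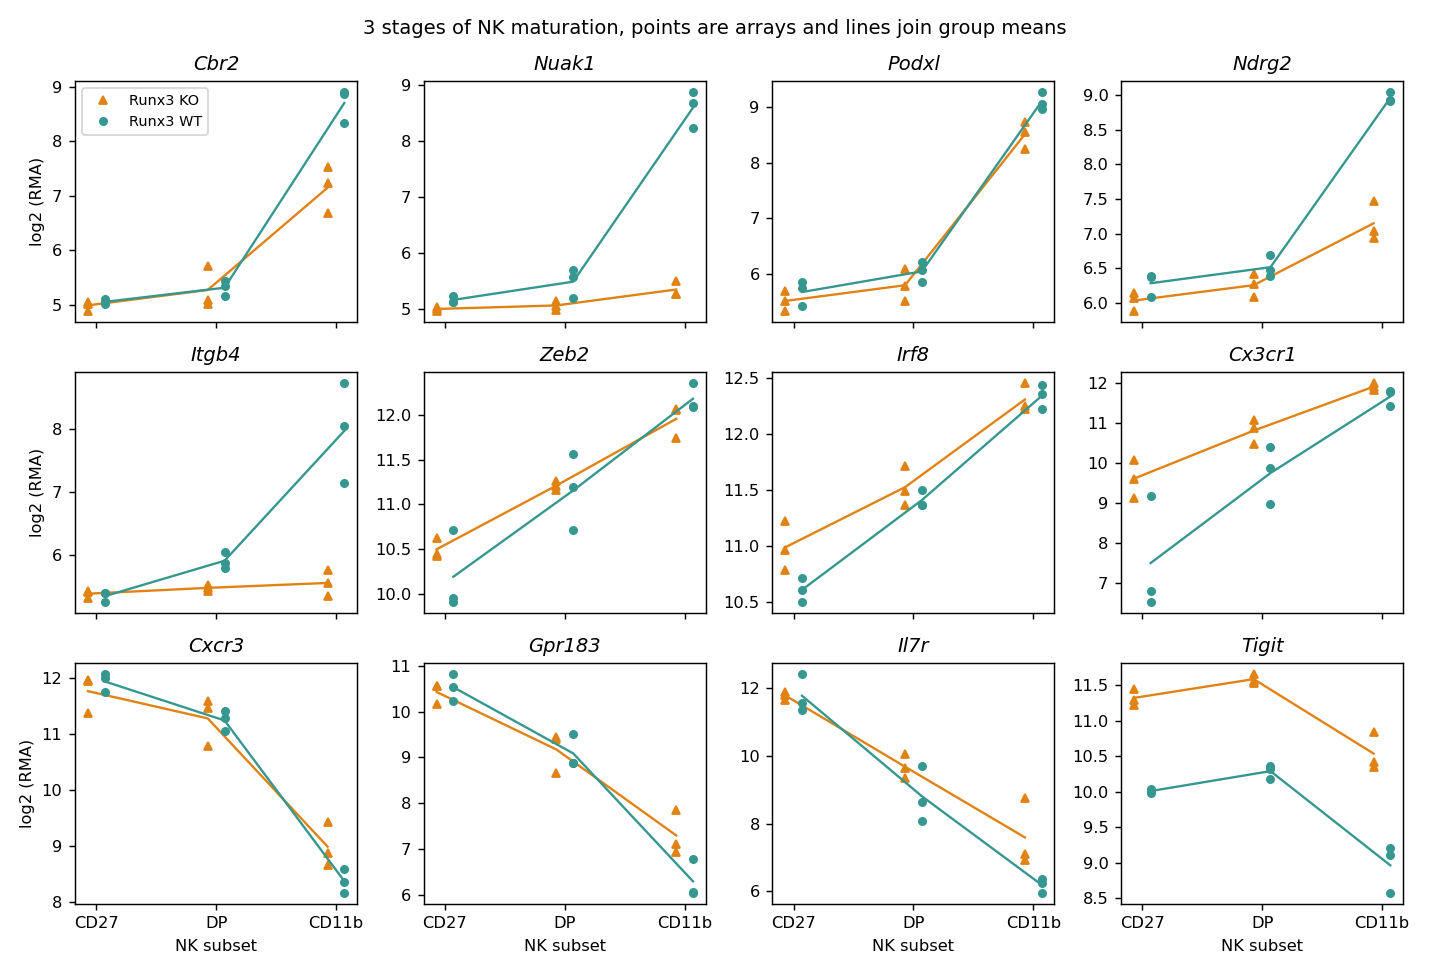
Log2 values of 12 genes (y axes, scaled for each gene) in CD27, DP and CD11b cells (x axes), with KO arrays as orange triangles, WT arrays as teal circles and lines through the group means. WT values of Cbr2, Nuak1, Podxl and Ndrg2 are nearly level up to DP and high in CD11b cells, and KO values of Nuak1 stay at 5.50 or less.

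The same step in KO mice was compared to see which changes occur without Runx3. In KO cells 182 probe sets passed between CD11b and DP cells (0.514%), 100 higher (0.282%) and 82 lower (0.232%), and 81 of these passed in WT as well, all with the same sign, which is 44.5% of the KO calls and 43.5% of the WT calls. Of the 186 WT calls, 177 (95.2%) had the same sign in KO, beside 54.0% of all probe sets. Without the 3 arrays of KO replicate 3 it was 179 (96.2%), and 52 of 119 KO calls were shared. On the CD11b array of that replicate the myeloid gene Lyz2 read 12.27 and the MHC class II chaperone Cd74 read 11.68, against at most 5.32 and 5.26 on WT CD11b arrays. KO CD11b replicate 1, which that count still holds, read 7.96 for Lyz2 and 6.97 for Cd74, and Cd74 read 8.58 on the DP array of KO replicate 3. The part of these genes in the KO values was not tested. Xist read 5.43, 5.62 and 12.64 on the KO CD11b arrays and 5.56, 5.45 and 12.88 on the KO DP arrays. In WT it was low in replicate 1 alone. Eif2s3y read 11.03, 11.12 and 9.10 on the KO CD11b arrays and 11.15, 11.10 and 8.54 on the KO DP arrays. The part of sex in differences between KO and WT was not tested.

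All 30 genes with the largest changes in WT had the same sign in KO, and 16 passed there, 7 rises and 9 falls. Podxl changed by 2.72 log2 in KO and 3.06 in WT cells, and Gprc5a by 2.72 in KO and 2.49 in WT cells. Cxcr3 changed by -2.29 in KO and -2.87 in WT cells, and Carmil2 by -1.58 in KO and -1.60 in WT cells. The difference between the KO and the WT step was tested itself and passed for 2 probe sets (0.00565%), while 1521 had an unadjusted p under 0.05. Nuak1 read 5.28, 5.50 and 5.28 in KO CD11b cells, against 4.99, 5.06 and 5.15 in KO DP cells, a change of 0.28 log2 (adjusted p = 0.661). Its KO step was below the WT step by a difference of -2.82 (95% interval -3.27 to -2.38, adjusted p = 5.06e-05), and this passed without each of the 12 arrays in turn.

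Ndrg2 read 6.93, 7.48 and 7.04 in KO CD11b cells, against 6.08, 6.27 and 6.41 in KO DP cells, a rise of 0.90 log2 (adjusted p = 0.00953). The difference from the WT step, -1.56 (-1.98 to -1.14, adjusted p = 0.0239), did not pass with the replicate block (0.0788) or without the KO replicate 3 arrays (0.278), nor without 8 of the 12 arrays singly (up to 0.122, without DP WT replicate 2). Itgb4 changed by 0.08 log2 in KO cells and Tmem108 by 0.11, with differences of -1.98 (-2.76 to -1.19, adjusted p = 0.547) and -1.60 (-2.52 to -0.69, adjusted p = 0.987). Cbr2 changed by 1.87 in KO cells (adjusted p = 0.00102), a difference from WT of -1.51 (-2.15 to -0.88) that did not pass (adjusted p = 0.616). Phxr4 changed by -0.34 in KO cells, a difference of 1.52 (0.71 to 2.33, adjusted p = 0.987).

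**Figure D5:**
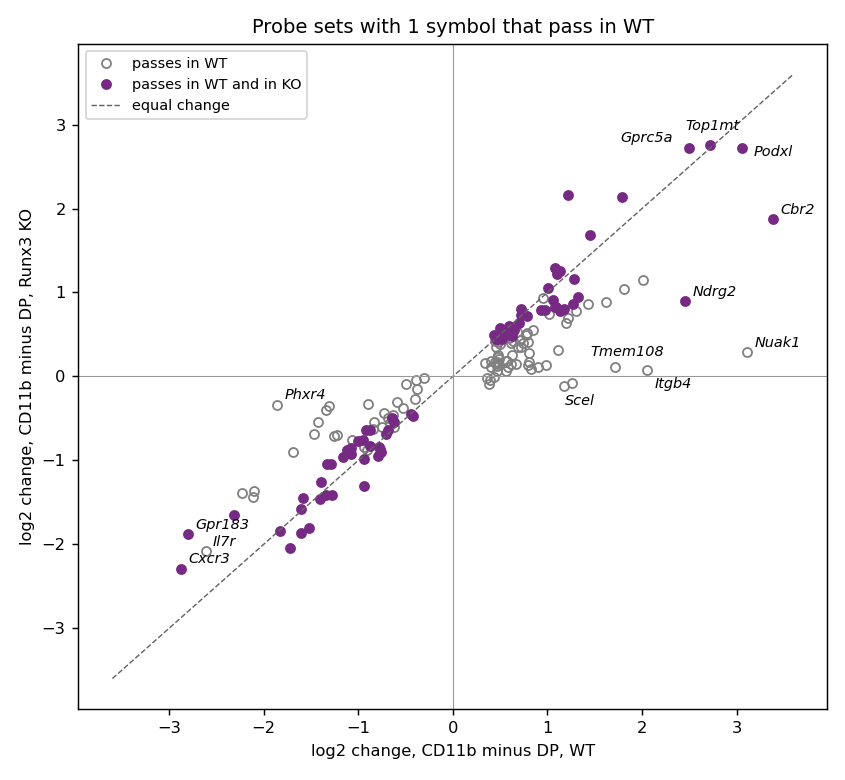
Change between CD11b and DP cells in Runx3 KO mice (y axis, log2) against that in WT mice (x axis, log2) for each probe set with 1 symbol that passed in WT; filled points passed in KO too, and the dashed line marks equal change. Nuak1 lies at 0.28 in KO and 3.11 in WT cells, and Podxl, Gprc5a and Top1mt lie near the line.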

How the data were processed

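Gene expression was measured on Affymetrix Mouse Gene 1.0 ST arrays, 3 for each of 6 groups of subset and genotype. The authors deposited log2 values, made by RMA with Partek per the submitters' processing notes, which give no versions; the log2 scale was judged from their range (3.91 to 14.96). RMA sets all arrays to one distribution, so a shift of most genes in one direction would not be seen. No further scaling or filter was applied. Of 35399 probe sets 21789 have 1 gene symbol in the platform annotation, 1621 have several and 11989 are not listed there; only the first kind is named.

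With limma 3.58.1 in R 4.3.3 all 18 arrays were fitted by their 6 group means, leaving 12 residual degrees of freedom, and moderated by eBayes. Contrasts were WT CD11b minus WT DP, the KO step minus the WT step, and the last WT step minus the one before. P-values are two-sided with Benjamini-Hochberg adjustment across the whole table, and pass under 0.05. Intervals are 95% intervals from the moderated standard error. Permuting 3 against 3 arrays gives 0.1 at the lowest, so single genes were also read from the moderated test. The procedure was tested on simulated data.

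Same-numbered CD11b and DP arrays of WT deviated together from their group means (r of 0.386, 0.248 and 0.456, other pairs -0.281 to -0.116). Those of KO did so too (0.300, 0.455 and 0.578, other pairs -0.521 to 0.287). In KO, replicates 1 and 2 were less distinct: r was 0.287 for CD11b 2 with DP 1 and 0.187 for CD11b 1 with DP 2. The block treats equal numbers as pairs, and the labels do not say whether they are. WT DP and CD27 arrays of equal number did not do so in each case (0.440, 0.139 and -0.00943; other pairs -0.400 to 0.275). The block is numbered within genotype. For lists a gene stands by its probe set of highest mean (19938 genes). Named are fixed genes of NK maturation, the 15 largest rises and 15 largest falls that passed without overlap, members of the lists, and the genes that passed the other contrasts; predicted genes, histones, receptor segments and odorant receptors were passed over. List members shown without a pass beyond this rule (Ifng, Il2rb, Emb, Myb, Irf7, Itgad, Itgax, Cxcr6, Slamf6, Crtam, Klrb1b, Lair1, Fasl, Ctsc, Rab27a, Tnfrsf18, Gimap6, Gata3 and the granzyme and perforin genes) were chosen after their values were seen. Members and lists were chosen with earlier results of these data known. Promoters are from RefSeq (GRCm38.p6).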

Additional observations from a re-analysis of the deposited data

Results flagged for a closer look

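Runx3 KO and WT mice differed in the last maturation step at 2 genes, by a test of the difference itself. For Nuak1 the KO step minus the WT step was -2.825 log2 (adjusted p = 5.06e-05): 3 of 3 KO CD11b arrays read 5.50 or less, and 3 of 3 WT CD11b arrays 8.23 or more. Without the 3 arrays of KO replicate 3 the adjusted p was 0.00778. For Ndrg2 the difference was -1.558 (adjusted p = 0.0239), with KO CD11b arrays at 6.93 to 7.48 and WT CD11b arrays at 8.91 to 9.05, and it did not pass without those 3 arrays (0.278).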

How the results depend on the processing

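The number of probe sets that passed between WT CD11b and DP cells, 186, became 73 with only the 6 arrays compared in the fit, 318 without the 3 arrays of KO replicate 3, 393 with array weights, 851 with a fixed replicate block and 489 with a random one (correlation 0.206). With 1 array left out it ran from 72 to 222. It stayed within 1.5 times of 186 under cyclic loess (256; 129 higher and 127 lower), a robust prior with an intensity trend (164), a filter at the median mean (226), the 9 WT arrays alone (179), 1 probe set per gene (186) and a minimum of 1.5-fold (143). The 2 differences between the KO and the WT step became 1 with that filter, 1 with only the compared arrays and 1 without KO replicate 3, and ran from 1 to 4 with 1 array left out. Leaving out KO arrays was chosen after seeing the data, as was counting the same sign in KO without KO replicate 3. The 9 differences between the last step and the one before became 16 without KO replicate 3, and 3 to 20 with 1 array left out. They became 38 with the fixed and 24 with the random replicate block, and Tmsb15a had an adjusted p of 0.055 with the fixed block. WT DP and CD27 arrays of equal number did not deviate together in each case, and whether they are pairs is not known. Cyclic loess gave 8 (6 higher and 2 lower, against 8 and 1).

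Of 92 named genes 41 passed; 22 of these lost their call under some setting (14 of the 30 with the largest changes), 20 with 1 array left out, 15 with the 9 WT arrays alone and 0 with the replicate block, which added 13 (Cx3cr1 and Tbx21 among them) and changed no other call. Signs turned in genes without a call: with 1 array left out Runx1 ran from -0.0185 to 0.13 log2 (-0.0167 without DP replicate 1 and -0.00343 without DP replicate 2), Eomes from -0.10 to 0.00615, and St6galnac3 from -0.0693 to 0.12 (-0.0115 without DP replicate 1). The cause of these changes was not tested. Groups left with 2 arrays borrow their spread from the other groups. The arrays give no detection calls here, so low readings may be background.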

Other observations

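Other genes with single probe sets passed that belong to no list, and these were chosen after their values were seen. Retreg1, an endoplasmic reticulum receptor of autophagy, fell by 1.11 log2 (adjusted p = 0.00125), and Tapbpl, a peptide editor of MHC class I, fell by 0.95 (adjusted p = 0.0013). Plcg1, a phospholipase C of receptor signalling, rose by 1.20 (adjusted p = 0.00801, or 0.0521 without DP replicate 2 and not passing without CD11b replicate 3), and Slc39a13, a zinc transporter, rose by 1.18 (adjusted p = 0.00192). Cdhr1, a cadherin-related gene, rose by 0.66 (adjusted p = 0.000194).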
